A study of Mus musculus with 132 samples.

Results

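The 48 genes described here are genes of the cell cycle: 19 that act at the start of DNA replication or during it, called S phase genes below, and 29 that act in mitosis. They were chosen by symbol, as genes known for these roles, out of 23412 gene symbols in the table. All 48 were found, and all 48 were among the 13050 genes with enough signal to be tested, meaning that 4 or more libraries had a value of 10 or higher. The cells were those of mouse tibial cortical bone: the left tibia of 10-week-old female C57Bl/6J mice was compressed in daily bouts of 1200 cycles (4 Hz, 9 N at the peak), with the contralateral limb kept as the control. After 1 bout of loading, bone was taken at 1 h (5 mice), 3 h (4 mice) or 24 h (4 mice), and 2 more groups were loaded on 7 days and killed 24 h after the last bout (7d, 4 mice) or on 5 days and killed on day 8 (5d, 5 mice). Each limb was cut into a metaphyseal shell, a proximal diaphysis and a mid-diaphysis, the cancellous bone was taken out, and 3′ ends of mRNA were sequenced, which gave 6 libraries for each of the 22 mice. The questions here are how the levels of the cell cycle genes differed between the 3 segments, and how loading changed them in each segment and at each time. No mouse was left without loading, so the control limb is a limb of a loaded animal.

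Cells that divide make the genes of these groups in order. Before replication, Cdc6 helps to load the Mcm2 to Mcm7 ring, the helicase that unwinds DNA, and Cdc45 and Gins2 switch it on; Pcna is the clamp that holds the polymerase, Rrm1, Rrm2, Tyms and Tk1 make nucleotides, and Chaf1a puts histones on new DNA. Cyclins E (Ccne1, Ccne2) and the transcription factor E2f1 drive entry into S phase, and E2f8 represses the same genes later. In mitosis, Cdk1 with cyclins A and B (Ccna2, Ccnb1, Ccnb2) starts division, Top2a untangles the chromosomes, Aurkb, Birc5 and Cdca8 form the chromosomal passenger complex, Ndc80, Nuf2 and the Cenp genes build the kinetochore, and Cdc20 and Ube2c serve the ubiquitin ligase that ends mitosis. In bone, osteocytes do not divide, while precursors of osteoblasts, growth plate chondrocytes and the blood-forming cells of the marrow do. In bulk tissue, fewer dividing cells and less RNA per cell cannot be told apart, nor which cells the transcripts came from.

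Most promoters of the mitosis genes held an element that most promoters of the S phase genes did not. RefSeq promoters (build GRCm38.p6, 250 bases before to 50 after the transcript start) were found for 40 of the 48 genes, 16 of S phase and 24 of mitosis. They were searched on both strands for the cell cycle homology region (CHR: TTTGAA or TTCGAA), the CCAAT box (CCAAT) and E2F sites (TTTGGCG as the first form, with TTTCCCG as well as TTTGCCG and also TTTCGCG as the others). In textbook accounts, the CHR and CCAAT boxes serve genes that peak late in the cycle and E2F sites those that peak early. A CHR stood in 19 of 24 mitosis promoters (79.2%) and in 4 of 16 S phase promoters (25%), against 13.5% of 9688 promoters of genes tested and 19.4% of all 27025 promoters. A CHR together with a CCAAT box stood in 70.8% of the mitosis promoters and 25% of the S phase promoters, against 5.65% among the genes tested. E2F letters ran the other way, with 37.5% of S phase promoters, 16.7% of mitosis promoters and 11.2% of the genes tested. The CCAAT box alone was frequent in both groups, at 79.2% of mitosis and 68.8% of S phase promoters, against 38.3% of the genes tested. A match is only a run of letters in this window, and short motifs occur by base composition too.

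**Figure D1:**
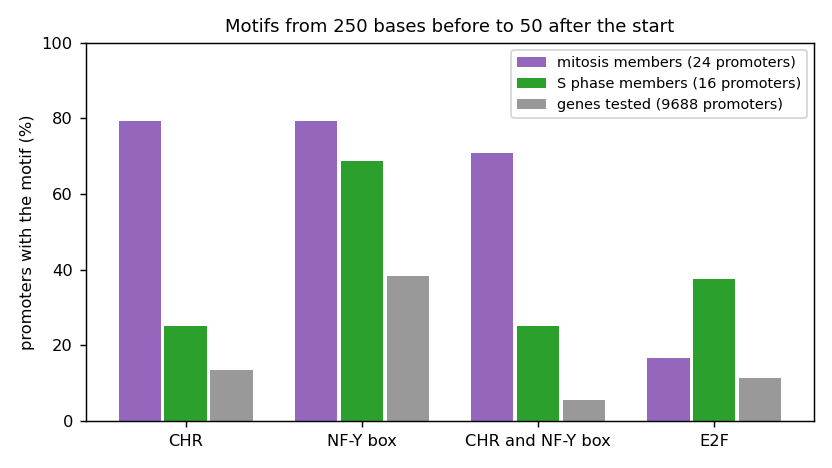
Share of promoters (percent, y axis) that hold each motif (x axis; the CCAAT box is labelled NF-Y box, after the factor known to bind it), for 24 mitosis genes, 16 S phase genes and the 9688 genes tested that had a promoter in the table. The CHR bar of the mitosis genes is at 79.2% and that of the S phase genes at 25%, while the CCAAT bars of both groups are closer, at 79.2% and 68.8%.

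Promoters of 4 mitosis genes are shown as examples of the CHR and CCAAT layout, 5′ to 3′ on the gene's strand. Capitals mark every match of the motifs above on either strand, so that TTCAAA is a CHR read from the other strand, and ATTGG is the box read that way; matches that overlap run together. Top2a (chr11:99024140-99024439, minus strand) held 4 CHR and 6 CCAAT matches, and Ccnb2 (chr9:70421505-70421804, minus strand) 2 and 3. Plk1, a kinase of mitotic entry (chr7:122159185-122159484, plus strand), held 1 of each. Cdca8 (chr4:124936868-124937167, minus strand) held 1 CHR, 4 CCAAT boxes and 1 E2F match.
Top2a: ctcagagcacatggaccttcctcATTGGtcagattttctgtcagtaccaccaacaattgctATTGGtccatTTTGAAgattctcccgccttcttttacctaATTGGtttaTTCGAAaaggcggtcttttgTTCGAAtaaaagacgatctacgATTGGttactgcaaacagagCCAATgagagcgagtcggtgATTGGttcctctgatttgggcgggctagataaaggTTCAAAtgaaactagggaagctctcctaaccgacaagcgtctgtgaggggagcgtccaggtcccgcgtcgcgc
Ccnb2: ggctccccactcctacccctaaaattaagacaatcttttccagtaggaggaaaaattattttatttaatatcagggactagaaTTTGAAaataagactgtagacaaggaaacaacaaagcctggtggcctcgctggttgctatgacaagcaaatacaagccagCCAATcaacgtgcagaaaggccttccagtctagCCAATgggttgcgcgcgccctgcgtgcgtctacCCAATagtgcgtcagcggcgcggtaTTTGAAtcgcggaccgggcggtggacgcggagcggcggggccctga
Plk1: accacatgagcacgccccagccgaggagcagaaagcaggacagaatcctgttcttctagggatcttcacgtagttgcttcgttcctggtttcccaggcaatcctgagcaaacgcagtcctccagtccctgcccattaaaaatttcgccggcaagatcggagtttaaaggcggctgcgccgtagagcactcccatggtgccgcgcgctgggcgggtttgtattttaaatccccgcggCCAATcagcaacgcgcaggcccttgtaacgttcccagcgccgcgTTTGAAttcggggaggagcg
Cdca8: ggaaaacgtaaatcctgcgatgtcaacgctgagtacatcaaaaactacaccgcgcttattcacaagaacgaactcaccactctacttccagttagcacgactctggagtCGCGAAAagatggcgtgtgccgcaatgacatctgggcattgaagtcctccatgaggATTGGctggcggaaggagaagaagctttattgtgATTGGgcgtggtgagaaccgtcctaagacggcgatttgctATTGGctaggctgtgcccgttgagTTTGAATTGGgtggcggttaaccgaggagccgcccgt

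The S phase promoters of Mcm5 (chr8:75109259-75109558, plus strand) and Mcm6 (chr1:128359656-128359955, minus strand) are shown for contrast. They held 3 and 2 CCAAT boxes, 2 and 3 E2F matches, and no CHR.
Mcm5: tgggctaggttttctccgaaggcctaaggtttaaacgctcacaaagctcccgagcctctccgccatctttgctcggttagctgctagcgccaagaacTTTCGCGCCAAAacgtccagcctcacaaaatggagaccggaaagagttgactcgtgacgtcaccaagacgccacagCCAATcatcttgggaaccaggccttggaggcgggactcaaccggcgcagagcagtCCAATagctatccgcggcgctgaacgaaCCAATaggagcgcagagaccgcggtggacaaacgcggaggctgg
Mcm6: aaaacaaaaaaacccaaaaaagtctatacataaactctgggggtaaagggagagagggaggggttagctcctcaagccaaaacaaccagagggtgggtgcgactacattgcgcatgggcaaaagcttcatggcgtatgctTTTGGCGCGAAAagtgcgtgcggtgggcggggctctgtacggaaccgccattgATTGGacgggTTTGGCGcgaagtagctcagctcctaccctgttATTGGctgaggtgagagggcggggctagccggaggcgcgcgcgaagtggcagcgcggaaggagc

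Birc5 (survivin; chr11:117848987-117849286, plus strand) is shown because it gave the smallest adjusted p of the 48 genes between segments, below, and its window differed from the other mitosis examples: 1 E2F match, no CHR and no CCAAT box.
Birc5: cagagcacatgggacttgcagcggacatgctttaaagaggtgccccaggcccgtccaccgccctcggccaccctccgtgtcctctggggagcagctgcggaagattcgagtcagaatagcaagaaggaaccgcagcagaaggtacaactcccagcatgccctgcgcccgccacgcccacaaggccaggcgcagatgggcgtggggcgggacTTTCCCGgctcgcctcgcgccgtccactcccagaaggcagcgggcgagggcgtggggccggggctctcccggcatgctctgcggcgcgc

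Reads recovered from the normalized counts ranged from 290325 to 5410458 per library, with medians of 1889380 for the shell, 1608870 for the proximal segment and 1221380 for the mid-diaphysis. The 48 genes together took 0.0796% to 1.02% of a library's reads (median 0.310%), and at least 34 of the 48 had a read in every library. Mean levels over all libraries ran from 13.5 normalized counts for Kif2c to 611 for Top2a. These levels were used to compare libraries and not genes. The annotation holds pseudogenes named after Pcna, Tyms, Ccnb1 and Ccnb2, with which reads of these genes could be split, and 19 of the 48 overlap a gene on the other strand, whose reads cannot be told apart where the counting ignored strand.

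There were 10 libraries that stood apart. In the comparisons of this paragraph, the other libraries are those outside these 10. In 4 mid-diaphysis libraries (1h loaded mouse 2, 1h control mouse 3, 5d loaded mice 4 and 5) the summed level of 6 mesothelium markers was 1175 to 1306. It was at most 23.6 in the 37 mid libraries that did not stand apart, and at most 35.9 in the rest of the 10. Their summed level of the 48 genes was 6392 to 7348, above the median of 4501 in the other mid libraries, while erythroid markers summed to 224 to 359 against at least 1169. A further 3 control libraries (proximal 3h mouse 3, proximal 7d mouse 2, mid 7d mouse 4) had the fewest genes detected, between 7929 and 9736. The lowest of the 122 libraries that did not stand apart had 9748, so the mid library, at 9736, was close to them. In the remaining 3 (1h loaded proximal mouse 5, 1h control mid mouse 5, 7d loaded mid mouse 1) markers of granulocyte precursors and neutrophils summed to 67812 to 140655 and erythroid markers to 9029 to 14789, against at most 51992 and 4079 in the other diaphyseal libraries. Not every gene of the granulocyte list followed its sum. Elane was at 187 to 303 and Mpo at 788 to 1296, above the medians of the other diaphyseal libraries but within their ranges (30.9 to 625 and 167 to 2213). All 48 genes were above the others' median in all 3 of these libraries. In all 3, 4 S phase and 15 mitosis genes were above each of the 78 diaphyseal libraries that did not stand apart. Of these genes, Ccnb1 and Mcm2 among others were not above all libraries of the other 2 sets. The shares of all genes tested that did the same were not counted. In these 3 libraries the summed level of the 48 genes was 14702 to 16789, against 8743 at most. The libraries highest in both of these marrow marker sums were thus also the highest in cell cycle genes. Osteoblast markers, the defining genes of the labelled tissue, were present in every library, with a summed level of at least 9435. In the last 3 libraries they summed to 9435 to 41425, against a median of 200254 in the other diaphyseal libraries. In the 4 mesothelium-high libraries they summed to 10555 to 26823, against a median of 207518 in the other mid libraries. The 3 libraries with the fewest genes detected had 198699 to 1025810.

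In the control limbs the proximal diaphysis had the lowest level of cell cycle genes. The summed level of the 48 genes was 4714 ± 670 normalized counts in the shell (SD, n = 22 mice), against 3563 ± 593 in the proximal diaphysis; the mid-diaphysis had 5252 ± 2542. Within a mouse, the proximal segment was the lowest of the 3 in 18 of 22 mice and the highest in 0, while the mid-diaphysis was the highest in 12 and the shell in 10. The proximal segment was lowest in 19 of 22 mice for the sum of the mitosis genes and in 17 for that of the S phase genes. The ratio of the mitosis sum to the S phase sum was 2.66 in the shell, 2.57 in the mid-diaphysis and 2.24 in the proximal segment. Sums in the mid-diaphysis spread most widely, from 2108 to 14702, and the highest of these was the 1h control library of mouse 5 named above.

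**Figure D2:**
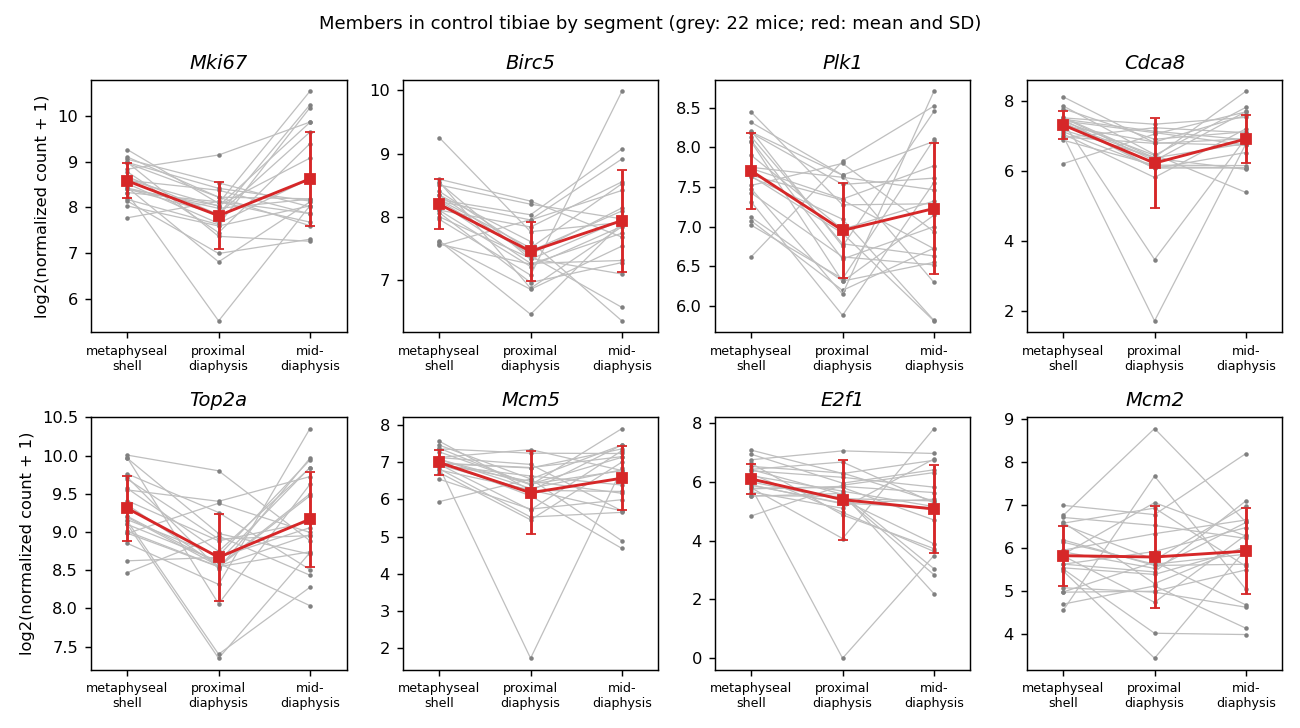
Control-limb levels (log2 of normalized count + 1, y axis) of 8 genes in the 3 segments (x axis); grey lines join the segments of 1 mouse (n = 22), and red squares with bars are the mean and SD. The means of Mki67, Birc5, Plk1, Cdca8, Top2a and Mcm5 dip in the proximal diaphysis, with 1 or 2 very low libraries for Cdca8, Mcm5 and E2f1, while the mean of Mcm2 is nearly level.

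Between the shell and the proximal diaphysis of control limbs, 12 of the 48 genes differed, and all 12 were higher in the shell (limma on the per-mouse differences of log2(normalized count + 1), adjusted p under 0.05 over all 13050 genes). Of all genes tested, 6.46% passed, 4.58% as higher in the shell and 1.88% as lower. The 12 were 7 of the 29 mitosis genes and 5 of the 19 S phase genes. A positive difference was seen in 44 of the 48, against 68.2% of all genes, and the median difference of the 48 was 0.47 on the log2 scale against 0.17 over all genes.

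Among the mitosis genes, Birc5, the passenger complex subunit whose promoter is shown above (gene at chr11:117849251-117855743), differed with the smallest p. Its lowest, median and highest control levels were 186, 303 and 609 normalized counts in the shell, against 86.8, 167 and 303 in the proximal segment; those of the mid-diaphysis were 80.7, 239 and 1013. The shell was higher than the proximal diaphysis in 21 of 22 mice, by 0.75 ± 0.11 (log2, SE, n = 22; adjusted p = 0.000167, limma), although the ranges overlap. Cdca8, which codes for borealin of the same complex, had the largest difference of the 48: levels of 73, 167 and 276 in the shell against 2.31, 84.4 and 160 in the proximal segment, a difference of 1.09 ± 0.25 (adjusted p = 0.0103, limma), with 20 of 22 mice higher in the shell. Aurkb, the kinase of this complex, was low everywhere, with medians of 4.68 in the shell against 6.09 in the proximal segment, and its difference was 0.07 ± 0.32 (adjusted p = 0.910, limma). So the subunits of 1 complex did not give the same call; the levels of Aurkb were close to the limit of counting.

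Mki67, the gene of the proliferation marker Ki-67 (chr7:135689784-135716361), had levels of 218, 375 and 612 in the shell against 45, 255 and 564 in the proximal segment. The shell exceeded the proximal segment by 0.76 ± 0.14 (adjusted p = 0.00177, limma), with 20 of 22 mice in that direction. Plk1 had levels of 97.3, 206 and 347 in the shell against 57.9, 122 and 225, a difference of 0.75 ± 0.14 (adjusted p = 0.00202, limma) with 20 mice higher. Top2a, at 353, 587 and 1027 against 162, 399 and 891, differed by 0.64 ± 0.13 (adjusted p = 0.00368, limma) in 19 mice. In each of these 3 genes most mice went 1 way while the ranges of the 2 segments overlap. The spindle protein gene Nusap1 differed by 0.90 ± 0.21 (adjusted p = 0.0108, limma) and the kinetochore gene Cenpf by 0.86 ± 0.21 (adjusted p = 0.0155, limma), each with 19 of 22 mice higher in the shell.

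Of the S phase genes, Mcm5 differed by 0.82 ± 0.22 (adjusted p = 0.0235, limma) with 20 of 22 mice higher in the shell, at levels of 60.5, 124.7 and 189 there against 2.31, 83.5 and 161 in the proximal segment. Other subunits of the same helicase ring did not all follow. Mcm7 was higher by 0.59 ± 0.17 (adjusted p = 0.0372, limma), while Mcm2 gave 0.03 ± 0.23, Mcm3 0.17 ± 0.12, Mcm4 -0.15 ± 0.22 and Mcm6 0.24 ± 0.18, with adjusted p of 0.388 or more by limma. The others called were Ccne2 (0.98 ± 0.29, adjusted p = 0.0426, limma), Chaf1a (0.86 ± 0.24, adjusted p = 0.0320) and Tk1 (0.64 ± 0.19, adjusted p = 0.0405). Mcm7 overlaps 3 microRNA genes on its own strand, and its reads cannot be told apart from theirs here.

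The rest of the 14 genes given in full did not pass in this contrast. Ube2c, the ubiquitin-conjugating enzyme of mitotic exit, had median levels of 181 in the shell against 140 in the proximal segment, a difference of 0.22 ± 0.10 (adjusted p = 0.187, limma) with 15 of 22 mice higher in the shell. Cdk1, the kinase that starts mitosis, had medians of 130 and 152 and a difference of -0.09 ± 0.21, and Ccnb1, its cyclin partner, medians of 44.5 and 29 and a difference of 0.58 ± 0.25 (adjusted p = 0.83 and 0.152, limma). Rrm2 gave 0.35 ± 0.25, Tyms 0.17 ± 0.26, Ccne1 0.59 ± 0.25 and Pcna -0.10 ± 0.25. For Cdk1 and Pcna the shell was the higher segment in only 11 and 6 of 22 mice, so the difference was not shared by every gene of either group.

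**Figure D3:**
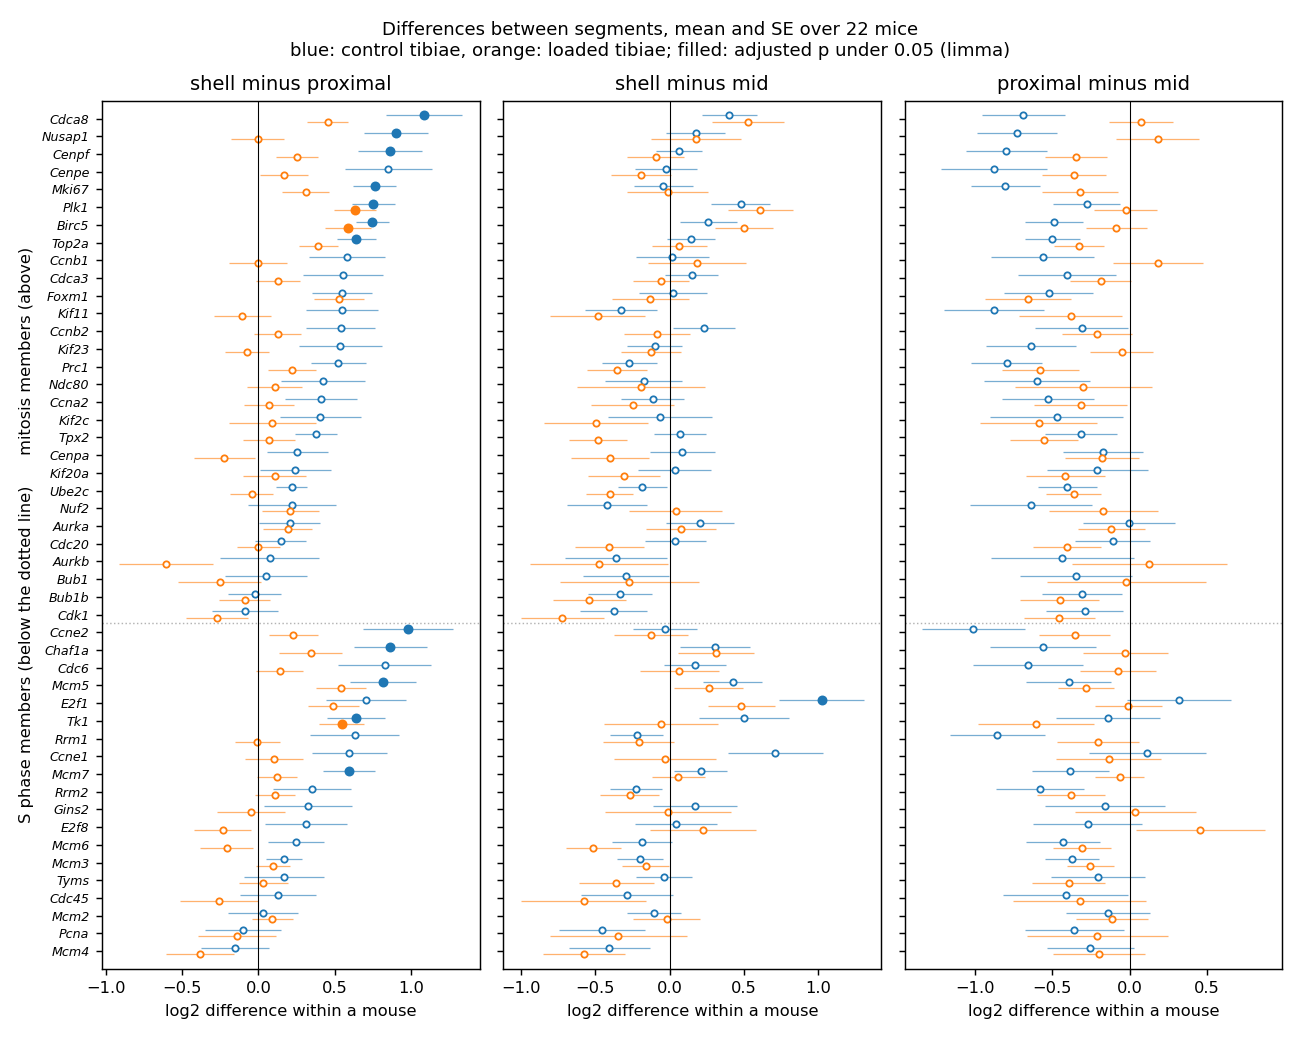
Differences between segments for each of the 48 genes (log2 difference of normalized count + 1 within a mouse, x axis; points are means and bars SE over 22 mice), mitosis genes above the dotted line and S phase genes below it; blue is control, orange loaded, and filled points passed an adjusted p under 0.05 by limma. In the shell minus proximal panel 12 blue points are filled, with Cdca8 farthest right at 1.09, and 3 orange ones; the blue points of the proximal minus mid panel lie left of 0 for 46 of 48 genes.

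Calls for Birc5, Cdca8, Plk1, Top2a and Cenpf were kept in all 13 other settings tried, such as edgeR on the recovered reads. Leaving out only the mesothelium-high or only the marrow-marker-high libraries could not change them. None of those is a control library of the shell or the proximal segment. Mki67 and Nusap1 were lost in the joint model of all libraries (Mki67 with an adjusted p of 0.0773, limma), Mcm5 without the mouse as a block, and Mcm7, Chaf1a, Tk1 and Ccne2 in edgeR and other settings; without that block 7 of the 48 passed in place of 12. Without all 10 libraries that stood apart 16 passed, and the median of the 48 was 0.33 against 0.06 over all genes. All 12 genes were among those that still passed, but some differences were smaller: Cdca8 went from 1.09 to 0.73, Ccne2 from 0.98 to 0.57, Chaf1a from 0.86 to 0.57 and Mcm7 from 0.59 to 0.37, while Birc5 (0.72), Plk1 (0.77) and Top2a (0.64) stayed close.

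Other genes of the same pathways went the same way in this contrast. Of 42 other mitosis genes tested, 9 were higher in the shell and 0 lower, all 42 had a positive difference, and their median was 0.59. They included Cdc25b, a phosphatase that activates Cdk1 (1.04 ± 0.23, adjusted p = 0.00876, limma), Cenpm of the kinetochore (1.1) and citron kinase (Cit, 1.17). Of 31 other replication genes, 3 were higher, Lig1, the ligase of replication (0.82 ± 0.13, adjusted p = 0.000369, limma), Cdt1 (0.54) and Rfc5 (1.01). Of 17 cyclin D, Cdk and Rb genes, Ccnd3 (0.78) and E2f2 (0.47) were higher, and of 14 Cdk inhibitors none was called by limma.

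Marker lists of other cell types differed between the same segments, and their part in these differences was not tested. Between the shell and the proximal diaphysis 11 of 13 chondrocyte genes were higher in the shell (median difference 2.53), as were 3 of 11 B cell precursor genes (0.57), 4 of 9 erythroid genes (0.49), 3 of 13 granulocyte genes (0.27), 5 of 12 endothelial genes (0.60) and 4 of 10 osteoclast genes (0.47). Of 10 fibroblast and periosteum genes, 7 were lower (median -0.77). The summed level of the granulocyte list ranged from 16943 to 47645 in the shell, against 13933 to 49673 in the proximal segment, and that of the erythroid list from 1452 to 3441 and from 1002 to 2923.

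The shell and the mid-diaphysis differed little in these genes. Of the 48, 1 passed, E2f1, the transcription factor of S phase entry (chr2:154559407-154569892), while 7.36% of all genes passed. Its levels were 27.6, 64.1 and 134 normalized counts in the shell, against 3.59, 38.7 and 223 in the mid-diaphysis; in the proximal segment they were 0, 47 and 131.5. The shell exceeded the mid-diaphysis by 1.02 ± 0.28 (adjusted p = 0.0234, limma), with 18 of 22 mice in that direction, but not called with edgeR, with no filter on low values, or without the 7 mesothelium-high and poor libraries. A positive difference was seen in 24 of 48 genes against 66% of all genes, with a median of -0.00 against 0.17. Of the 42 other mitosis genes Mybl2, a transcription factor of the late cycle, was higher in the shell (1.06 ± 0.33, adjusted p = 0.0429, limma), and of the 17 cyclin D, Cdk and Rb genes Ccnd2 (0.76) and Ccnd3 (0.61), cyclins that carry cells through G1 phase.

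Between the proximal and the mid-diaphysis, 0 of 48 passed by limma, while 0.207% of all genes did, and 15 of the 48 had an unadjusted p under 0.05 (8.95% of all genes; 12 of the 48 by edgeR, also with 0 called). The values were lower in the proximal diaphysis for 46 of the 48 genes, against a near even split over all genes (50.8% positive), and the median difference was -0.41 against 0.01. Mki67 had the smallest adjusted p, 0.138, at -0.80 ± 0.22 (limma, n = 22). The mid-diaphysis spread widely, with a lowest, median and highest Mki67 level of 152, 285 and 1481.

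In the loaded limbs of the same mice fewer of the 48 genes differed between segments. Shell over proximal diaphysis was called for 3 of 48 genes, Plk1 (0.63), Birc5 (0.59) and Tk1 (0.54), against 3.3% of all genes by limma, and all 3 were among the 12 called in control limbs. The median of the 48 was 0.10 against 0.02 over all genes, with 30 of 48 positive (52.7% of all genes). Without the 3 marrow-marker-high libraries 7 genes passed. None passed, 0 of 48, in the joint model of all libraries or without the mouse as a block. The summed level was 4876 ± 854 in the shell (SD, n = 22), against 4547 ± 2531 in the proximal segment; the mid-diaphysis had 5754 ± 2942. Against the mid-diaphysis, 0 of 48 passed for the shell (10.6% of all genes; 10 of the 48 at an unadjusted p under 0.05, as 25.9% of all genes) and 0 for the proximal segment (1.65%; 3 of the 48 at an unadjusted p under 0.05, against 13.6%). Tested directly, the response to loading differed between the shell and the proximal segment in 0 of 48 genes over all times by limma, with 9 at an unadjusted p under 0.05 (8.34% of all genes) and a smallest adjusted p of 0.481; at 7d 0.774% of all genes passed and again 0 of the 48 (smallest adjusted p of 0.0924, limma), so the lower count in loaded limbs was not shown to be a difference between the limbs.

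Loading changed 0 of the 48 genes past the threshold in any of the 15 combinations of segment and time by limma, in the 5 averages over segments, and over all times. Few genes of any kind passed: by time the averages called 2 of 13050 genes at 1h (0.0153%), 0 at 3h, 1 at 24h (0.00766%), 5 at 5d (0.0383%) and 16 at 7d (0.123%). In the 15 combinations 1 gene passed in the shell at 5d, 1 in the shell at 7d and 1 in the proximal segment at 1h (0.00766% each), and 0 in the other 12. With the edgeR test 0 of the 48 passed too. At 7d, 12 of the 48 had an unadjusted p under 0.05 by limma, against 12.2% of all genes, and 5 by edgeR.

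In the average over segments, loaded minus control was positive for 27 of 48 genes at 1h (median 0.03 on the log2 scale, over all genes -0.05), 27 at 3h (0.15 against 0.08), 24 at 24h (0.00), 42 at 5d (0.20 against 0.02) and 43 at 7d (0.44 against 0.12). The shares of all genes with a positive difference at these times were 42.4%, 57.6%, 47.2%, 52.3% and 60.4%. Without all 10 libraries that stood apart, 30 of 48 were positive at 1h (median 0.12) and 17 of 48 at 3h (-0.15), and 24h held none of these libraries. That setting leaves 2 mice at 1h and 3 at 3h. At 5d, 22 of 48 were positive without the mesothelium-high libraries, with a median of -0.01. The average takes only mice with all their libraries, so this setting drops mice 4 and 5 in every segment. It leaves 3 mice at 5d. At 7d, 39 of 48 were positive without the 3 marrow-marker-high libraries (median 0.32), and 28 of 48 without all 10 libraries that stood apart (0.22). In that last setting only mouse 3 is left with all its libraries, and it is assumed to vary like the other mice.

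**Figure D4:**
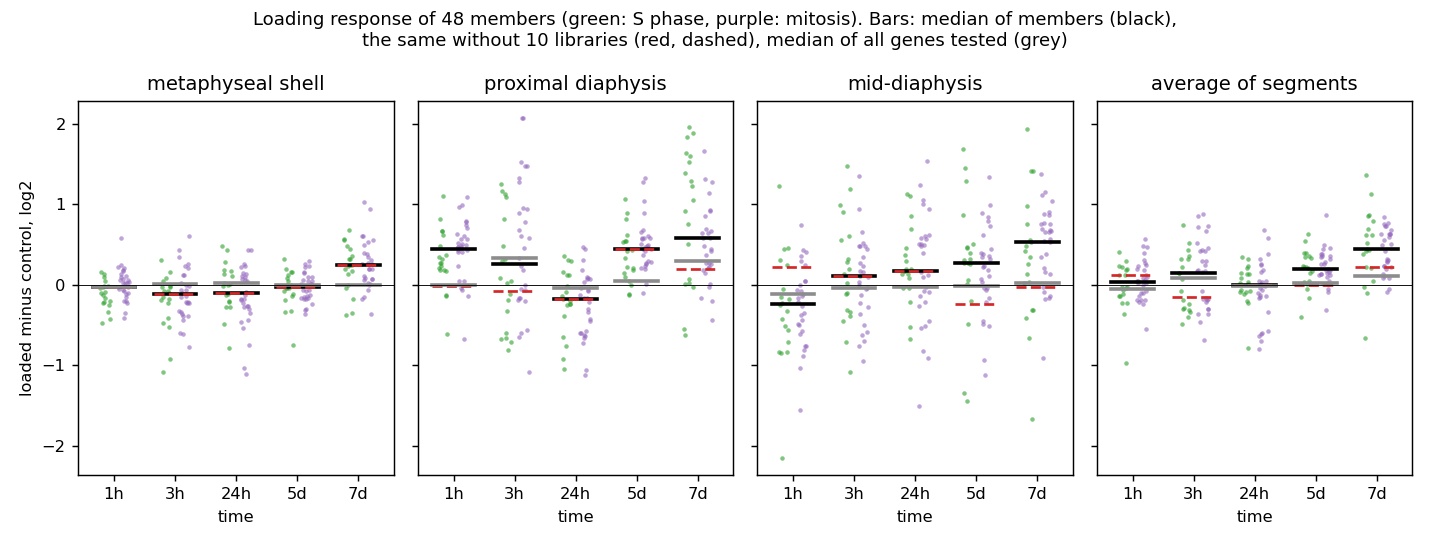
Loaded minus control (log2 difference of normalized count + 1, y axis) of each of the 48 genes by time (x axis) in the 3 segments and their average; green points are S phase and purple points mitosis genes, black bars the median of the 48, dashed red bars the same without the 10 libraries that stood apart, and grey bars the median of all genes tested. The shell holds none of these 10 libraries, so its black and red bars are the same values, with a median of 0.24 at 7d. In the mid-diaphysis at 5d the black and red bars lie apart, at 0.27 and -0.24.

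At 7d the largest difference of the 48 was that of Cdc6, the helicase loader (chr11:98907801-98923940). Averaged over the 3 segments, its control levels were 24, 17.9, 13.8 and 25 normalized counts in mice 1 to 4, and its loaded levels 72.8, 36.9, 31.3 and 54.1. All 4 loaded values lie above all 4 control values, and the difference was 1.36 ± 0.32 (log2, SE, n = 4; adjusted p = 0.0579, limma), just short of the threshold. By segment it was 0.55 ± 0.28 in the shell, 1.6 ± 0.78 in the proximal segment and 1.94 ± 0.64 in the mid-diaphysis. Over 12 other settings it ran from 1.11 to 1.46, with adjusted p of 0.0523 to 0.407. Of the 22 fits without a single mouse, only those without 3h mouse 3 or 7d mouse 3 passed, with adjusted p of 0.0282 and 0.0465 (limma). The 7d averages of Cdc6 hold the poor control libraries of mice 2 and 4 and the marrow-marker-high loaded mid library of mouse 1. Cdc6 was at 0 to 36.8 in the 3 poor libraries and at 104 to 175 in the 3 marrow-marker-high ones.

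E2f1 at 7d had control averages of 31.9, 21.7, 97.8 and 31.9 and loaded averages of 61.1, 55.3, 52.6 and 35.5, which overlap, since mouse 3 went the other way. Its difference was 1.12 ± 0.32 (adjusted p = 0.130, limma; 3 of 4 mice higher), and -0.20 without the 10 libraries. The last value is that of mouse 3 alone. Without mouse 3 it was 1.57 (adjusted p = 0.0153, limma), and without each of the other 7d mice in turn it was 0.61 to 1.26, with no call. In the proximal diaphysis E2f1 had the largest difference of any member there at 7d, 1.96 ± 0.67 (adjusted p = 0.185, limma), beside a control library of mouse 2, 1 of the poor libraries, in which E2f1 was at 0, Cdca8 and Mcm5 at 2.31 and Chaf1a at 1.15. Without the 7 mesothelium-high and poor libraries the E2f1 difference there was 0.51 (adjusted p = 0.924, limma).

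For the other panel genes at 7d the average differences, none called by limma, were 0.61 for Mcm6, 0.69 for Mcm5, -0.03 for Mcm2, -0.66 for Pcna, 0.44 for Rrm2, 0.86 for Tyms, the enzyme that makes thymidylate, and 0.52 for Ccne1. Among mitosis genes they were 0.32 for Mki67, 0.23 for Top2a, 0.68 for Cdk1, 0.84 for Ccnb1, 0.28 for Birc5, 0.11 for Ube2c and 0.60 for Cdca8. Tyms was higher in the loaded limb in 4 of 4 mice. Pcna was the lowest of the 48, and in its case 1 of 4 mice was higher. Without the 7 mesothelium-high and poor libraries, which leaves mice 1 and 3, Pcna gave 0.17, Mki67 -0.30, Mcm2 0.90, Mcm5 0.16, Tyms 0.39 and Ccne1 1.47. These values still hold the marrow-marker-high loaded mid library of mouse 1.

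In the wider pathway lists 0 genes were called at 7d in the averages by limma. The median difference was 0.45 for 31 other replication genes (27 positive, 7 at an unadjusted p under 0.05), 0.59 for 42 other mitosis genes (39 positive, 12 at an unadjusted p under 0.05), 0.08 for 17 cyclin D, Cdk and Rb genes and 0.05 for 14 Cdk inhibitors and arrest genes. Marker lists of other cells also had medians away from 0 in the same averages: 0.80 for 11 B cell precursor genes, 0.32 for 9 erythroid genes, -0.58 for 10 osteoblast genes and -2.38 for 10 skeletal muscle genes, with 0 called in each list. These averages hold the poor control libraries of mice 2 and 4 and the marrow-marker-high loaded mid library of mouse 1. The part of the marker lists in the values of the 48 was not tested.

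In the shell, the log2 ratio of loaded to control for the summed level of the 48 genes was -0.03 ± 0.15 at 1h (SD, n = 5), 0.03 ± 0.07 at 3h (n = 4), 0.00 ± 0.10 at 24h (n = 4), 0.05 ± 0.24 at 5d (n = 5) and 0.19 ± 0.14 at 7d (n = 4). At 7d it was positive in 4 of 4 mice, with values between 0.06 and 0.37, and the single-gene median was 0.24 (39 of 48 positive, against 49.1% of all genes; 3 at an unadjusted p under 0.05, against 7.46%). In the shell at 7d the gene with the highest difference was Kif2c, a kinesin that takes microtubules apart, at 1.03 ± 0.44 (adjusted p = 0.612, limma) and a mean level of 32.9 in the loaded against 15.4 in the control limb; the gene with the lowest was Chaf1a, at -0.38 ± 0.26.

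In the diaphysis the spread between mice was larger. In the proximal segment, the summed ratio was 0.51 ± 0.92 at 1h, 0.02 ± 0.57 at 3h, -0.14 ± 0.46 at 24h, 0.39 ± 0.36 at 5d and 0.31 ± 0.30 at 7d (SD, 4 or 5 mice). The highest value at 1h, 2.11, came from loaded mouse 5, a library high in marrow markers, and without it the gene median there fell from 0.45 to -0.01. At 5d the proximal gene median was 0.45 (45 of 48 positive, against 54.2% of all genes), with 0 genes called. None of the 10 libraries is a proximal library at 5d, so leaving them out could not change it. At 7d the proximal median went from 0.58 (41 positive, against 63.1% of all genes) to 0.19 (31 positive) without the 7 mesothelium-high and poor libraries. At 3h the proximal median of 0.26, with 0.34 over all genes, became -0.07 without the poor control library of mouse 3. In the mid-diaphysis the ratio ran from -0.08 ± 0.50 at 1h to 0.42 ± 0.96 at 7d, and the 7d value of mouse 1 was 1.78. The mid median of -0.24 at 1h became 0.22 without the 10 libraries. Those of 0.27 at 5d and 0.53 at 7d became -0.24 without the 4 mesothelium-high libraries and 0.10 without the 3 marrow-marker-high ones.

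**Figure D5:**
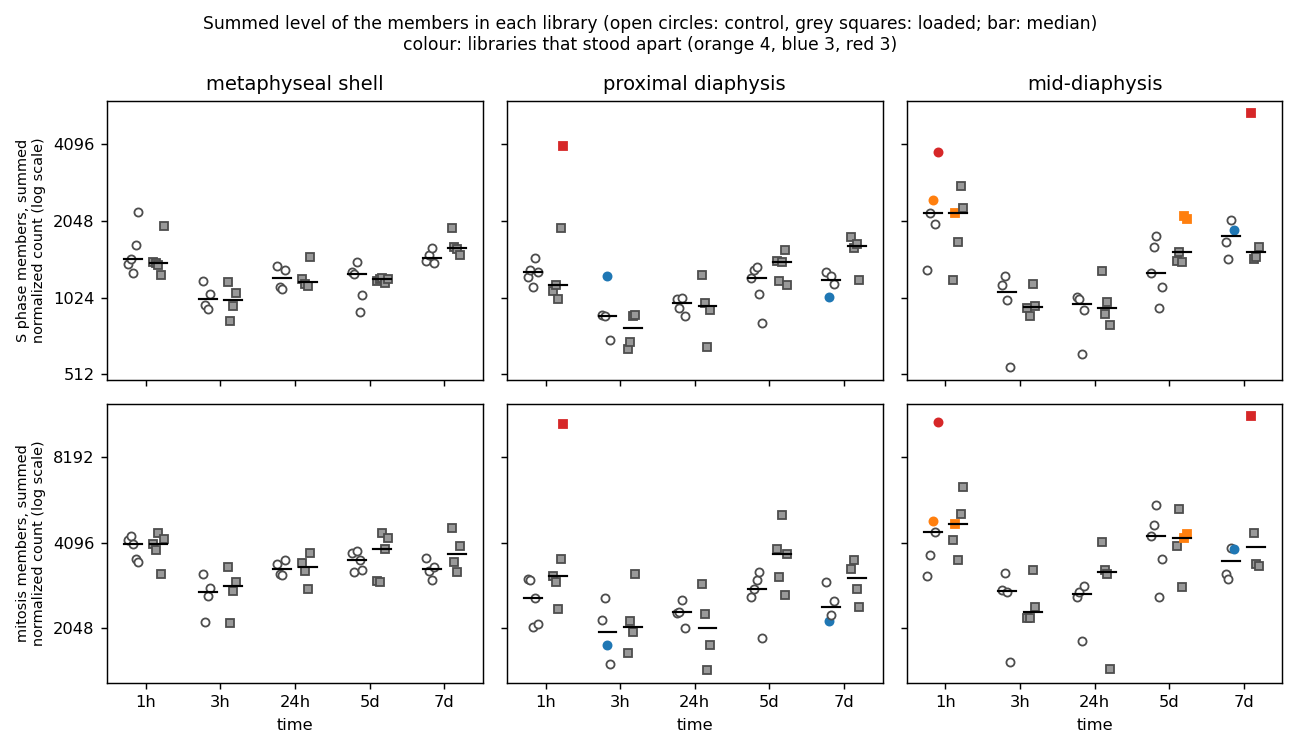
Summed level of the S phase genes (upper row) and the mitosis genes (lower row) in each library (normalized counts, log axis) by time and segment; open circles are control and grey squares loaded limbs, bars are medians, and the 10 libraries that stood apart are coloured (orange mesothelium-high, blue poor, red marrow-marker-high). The 3 red libraries, at 10699 to 11381 for the mitosis genes, stand above all others of the diaphysis, and the shell spreads least.

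The genes with the highest and lowest differences outside 7d had adjusted p of 0.452 or more by limma in each comparison of 1 segment, or of the average, at 1 time. The kinetochore motor Cenpe was highest in the averages at 1h (0.57 ± 0.28) and 3h (0.87 ± 0.31, 4 of 4 mice) and over all times (0.41 ± 0.13, adjusted p = 0.394, limma; 17 of 22 mice). Without the 10 libraries that stood apart, which leaves 2 mice at 1h and 3 at 3h, Cenpe gave 0.46, 0.34 and 0.07 in these 3 averages. Aurka, a spindle pole kinase, was lowest at 3h (-0.69 ± 0.30, higher in 0 of 4 mice; -0.72 without the poor control library of mouse 3), Ccnb1 at 24h (-0.80 ± 0.39, higher in 0 of 4 mice), and Pcna at 1h (-0.97 ± 0.48, and -1.28 without the 10 libraries). The response did not differ between the times for any of the 48 (F test over the 5 times, smallest adjusted p of 0.61 in the averages, where 0.046% of all genes passed, limma).

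The level in the control limbs differed between the groups of mice killed at different times. Averaged over segments, 20 of 48 genes differed (F test of limma over 5 times, adjusted p under 0.05), against 21.5% of all genes; in the shell alone 16 of 48 differed against 33.7%, in the proximal and mid-diaphysis 0, against 0.59% and 0.276% (6 and 10 at an unadjusted p under 0.05, against 17.3% and 13.5% of all genes). In the shell the share of the 48 was thus near that of all genes. Without the 7 mesothelium-high and poor libraries 9 of 48 differed in the average, and without all 10 libraries that stood apart 6. In both settings 2 of the 4 mice are left at 7d. Each time is its own set of mice, so time after loading, and day or batch of processing, cannot be told apart from the set of mice.

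Pcna, the replication clamp, had control averages of 43.3 to 87.0 normalized counts at 1h and 52.9 to 75.7 at 7d, against 7.4 to 34.9 at 3h, 9.3 to 32.3 at 24h and 13.5 to 33.6 at 5d (adjusted p = 0.00482, limma), so the first 2 groups did not overlap the other 3. Without the 10 libraries that stood apart Pcna was not called (adjusted p = 0.0563, limma). In the loaded limbs the values were 10.7 to 88.4 at 1h and 28.0 to 127 at 7d, which overlap those at 3h (21.9 to 31.1), so the separation of the control limbs was not seen there. Tk1, the thymidine kinase, was at 75.6 to 143 in controls at 7d and 15.6 to 161 at 1h, and at 12.3 to 34.8 at the other times (adjusted p = 0.00513, limma). It was not called without the 7 mesothelium-high and poor libraries (adjusted p = 0.108, limma) or without all 10 (0.104). Loaded limbs had Tk1 at 62.1 to 517 at 7d and 28.8 to 128 at 1h, against 18.4 to 22.1 at 3h and 10.5 to 25.04 at 24h. The highest of these averages, 517, holds the marrow-marker-high mid library of mouse 1, where Tk1 was at 1349.

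Among mitosis genes, Prc1, a cross-linker of spindle microtubules, had the smallest p of the 48 (adjusted p = 0.00202, limma), with control averages of 127 to 175 at 7d, 70.0 to 231 at 1h, 67.4 to 116.996 at 5d, 58.7 to 73.9 at 24h and 35.7 to 63.4 at 3h. Ccnb2 was at 54.9 to 164 at 7d and 49.9 to 226 at 1h, and at 31.8 to 37.8 at 24h (adjusted p = 0.00476, limma). It was not called without the 7 or the 10 libraries (adjusted p = 0.0577 and 0.113, limma). Prc1 and Top2a passed in both of these settings (adjusted p of 0.0414 to 0.0455, limma). Top2a was at 613 to 695 at 1h, 584 to 796 at 5d and 529 to 655 at 7d, above the 347 to 486 at 3h, with 412 to 600 at 24h. Marker lists of other cells moved between these groups as well: the endothelial list summed to 556 to 615 in the control averages at 7d, which hold 2 poor libraries, against 998 to 1260 at 24h. Its part in the differences between the groups was not tested.

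Across the 22 control mice, Mki67 and Mcm2 were set against the mean log2 level of each marker list in each segment, 66 relations in all. By permutation (100000 permutations, two-sided, Benjamini-Hochberg over the 66), 16 passed by Pearson's r and 8 by both r and Spearman's rho. In the shell, Mcm2, a subunit of the helicase, rose with the erythroid list (r = 0.74, rho = 0.73, permutation, adjusted p = 0.00429 and 0.00495), with r = 0.63 without the 2 mice farthest from the median and 0.71 with the time means taken out. It fell with the endothelial list there (r = -0.74, rho = -0.71; -0.70 and -0.54). In the proximal diaphysis Mki67 went down as the fibroblast and periosteum list went up (r = -0.66, rho = -0.73, permutation, adjusted p = 0.00726 and 0.00495; -0.70 and -0.68). The poor proximal control libraries, of 3h mouse 3 and 7d mouse 2, were not the 2 left out there, so that relation was not tried without them. Mki67 did not pass with the erythroid or the endothelial list in the shell (r = 0.13 and -0.19, permutation, adjusted p = 0.725 and 0.61). With the time means taken out its r was -0.30 and 0.52. Both axes of each relation come from the same libraries.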

How the data were processed

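The values deposited by the authors are normalized counts per gene in 6 libraries of each of 22 mice, a signal scaled between libraries by size factors. STAR, mm10, FastQC and DESeq2 are named in the submitters' processing notes without versions; the counting tool and the annotation are not given in the sources used here. Dividing each column by the value of 1 read gave whole reads for 100% of values within 0.02 read. Of 23412 symbols, 4897 were at 0 in every library and 27 read as dates; genes at 10 or more in at least 4 libraries were tested, 13050 in all.

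The 6 libraries of a mouse were paired, as the extract protocol and the table's header give the mouse. The main test was limma 3.58.1 (R 4.3.3, trend, two-sided) on per-mouse differences of log2(normalized count + 1), in 1 fit per segment or comparison, with Benjamini-Hochberg adjustment over the 13050 genes. A fold on this scale understates the change of low genes. The alternatives were other pseudocounts (0.5 and 5), filters and scaling, no pairing, time as a covariate, a joint model of all libraries, edgeR 4.0.16 on the recovered reads, leaving out the libraries that stood apart, and leaving out each mouse. Scripts were tested on simulated data. No 2 of the 8646 pairs of libraries agreed within sampling noise (lowest chi-square per degree of freedom 2.10). Gene positions are those of the GENCODE M21 annotation of mm10. The table holds reads of 3′ ends without molecular identifiers, so counts of reads are not counts of molecules.

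The 48 genes and the gene and marker lists were chosen with earlier results of these data known. All 48 could be named: a panel of 14 genes was given in full, with genes past an adjusted p of 0.05, up to 8 per comparison, and the largest rise and fall with loading among those whose higher limb averaged 20 or more. Of the pathway lists, up to 4 genes past the threshold could be named per comparison, by size of the difference.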

Additional observations from a re-analysis of the deposited data

Results flagged for a closer look

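In 5 of 60 groups of 4 or 5 libraries tested, 1 library's summed level stood far from the others of its group, judged by the gap to the next library as a share of the range; chance gives about 1 in 20 groups. The S phase sum of the shell at 1h was 1950 in the loaded library of mouse 5, against 1262 to 1408 in the other 4. At 7d the S phase sum of the loaded mid-diaphysis was 5408 in mouse 1 against 1453 to 1615, and the mitosis sum of the same library was 11381 against 3406 to 4435. At 1h the mitosis sum was 10699 in the loaded proximal library of mouse 5 against 2396 to 3581, and 10877 in the control mid-diaphysis library of mouse 5 against 3135 to 4880. The last 4 values come from the 3 libraries in which granulocyte markers summed to 67812 to 140655 and erythroid markers to 9029 to 14789; the part of those cells was not tested. Among 90 pairs of times or segments, counted over both sums, 0 had every mouse of one going up with loading and every mouse of the other going down.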

How the results depend on the processing

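Between the shell and the proximal diaphysis of control limbs 12 genes passed; without the replicate block for the mouse 7 did, and without each mouse in turn 8 to 13. Shell against mid-diaphysis in control limbs went from 1 to 0 with no filter, with edgeR and without 7 libraries (1 to 2 without single mice), and proximal against mid from 0 to 3 in the joint model. In loaded limbs, shell against proximal went from 3 to 0 without the replicate block and in the joint model, to 5 with a filter at a mean of 50 or time as a covariate, and to 7 without 3 or 10 libraries (1 to 7 without single mice). Shell against mid went from 0 to 1 with no filter, to 2 with upper-quartile scaling, time as a covariate or without 3 libraries, and to 3 in the joint model or without 10 libraries (0 to 2 without single mice), and proximal against mid from 0 to 1 in the joint model. The 20 genes that differed between the times in control limbs became 9 without 7 libraries and 6 without 10 (17 to 22 without single mice). For loading, 0 genes passed in every setting that kept all mice, and 0 to 2 in the 7d average without single mice. E2f1 at 7d went from 1.12 to -0.20 without 10 libraries. The cause of these changes was not tested beyond the fewer libraries or genes that some settings hold. Depth limits the low genes: Aurkb is near the limit of counting, and the summed loading ratio had an SD of up to 0.96 in the diaphysis against 0.24 in the shell. Which cells the transcripts came from, and the day or batch of each set of mice, are not given.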
